A study of Xenopus laevis with 20 samples.

Results

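The genes described here encode the parts and the builders of the motile cilium. They were chosen by name: a probe set entered if its annotated symbol began with 1 of 12 prefixes (dnah, dnai, dnal, dnaaf, ift followed by a digit, cfap, rsph, tekt, spag, bbs, drc or odad), and if its log2 intensity was 4 or more on at least 5 of the 20 arrays. Where several probe sets carried a symbol, the brightest over all arrays stood for it. Of 55 symbols with such a name, 51 passed, out of 8397 symbols tested on the arrays. The 51 symbols came from 45 genes, 36 from the L and 15 from the S subgenome of the frog Xenopus laevis, whose duplicated genome carries many genes as .L and .S copies (homeologs). The 4 that did not pass were cfap299.L, cfap410.S, dnah9.S and ift172.L, each below log2 4 on all 20 arrays. All 51 genes lay at or above log2 4 on every control array, 31 did so on all 20 arrays, and tekt2.L would not have passed without the control arrays.

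A motile cilium is built around an axoneme, a ring of microtubule doublets about a central pair. Dynein arms on the doublets drive the beat, radial spokes, the nexin-dynein regulatory complex and the central apparatus control it, and tektins and many CFAP proteins stabilise the doublets. Dynein arms are pre-assembled in the cytoplasm by assembly factors, and building blocks travel along the axoneme by intraflagellar transport, with the BBSome as a cargo adaptor for membrane proteins. In the epidermis of the frog embryo motile cilia are carried by multiciliated cells, whose programme depends on the regulators Mcidas, Foxj1 and Rfx2. Intraflagellar transport and the BBSome also serve non-motile cilia, so the name rule holds genes with wider roles, and spag7.L entered by its prefix only.

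Levels were measured in 20 single animal cap explants, the prospective ectoderm cut from blastulae, with 5 explants in each of 4 groups. All embryos received mRNA at the 2-cell stage, and all caps were cut at stage 9 and cultured for 8 h with dexamethasone. The control mRNA encoded GR, the part of the glucocorticoid receptor that binds the hormone, and the other groups received Pax3GR, Zic1GR or the combination of both, which are hormone-inducible forms of the transcription factors Pax3 and Zic1. Pax3 and Zic1 act together at the border of the neural plate, from which neural crest and hatching gland arise. The factors were thus overexpressed in naive ectoderm, and the labels do not say which explants shared a clutch.

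RNA of each explant was amplified for 1 Affymetrix Xenopus laevis Genome 2.0 array, and values are log2 intensities. At log2 4 or more stood 18949 to 19239 of the 32539 probe sets of an array, and 20519 were tested. The probe set for pax3.S read 2.29 to 2.54 with GR, 13.24 to 13.35 with Pax3GR, 8.27 to 10.95 with Zic1GR and 12.83 to 13.00 with both. The zic1.S probe set read 6.33 to 8.35 with GR, 13.81 to 14.10 with Pax3GR, 11.85 to 13.06 with Zic1GR and 13.47 to 13.89 with both. In groups that received a factor, its probe set cannot tell injected from embryonic transcripts here. The Zic1GR explants received no Pax3GR mRNA, and the Pax3GR explants no Zic1GR mRNA. Each single-factor group thus also had a raised reading for the factor that it did not receive. Control explants carried the defining markers of ciliated epidermis: the array means were 11.63 to 12.60 for 10 multiciliated cell probe sets and 12.00 to 12.68 for 11 epidermis probe sets. The array that correlated least with its group was replicate 3 for GR (mean correlation 0.963), replicate 1 for Pax3GR (0.881), replicate 5 for Zic1GR (0.925) and replicate 4 for the combination (0.922).

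Most cilium genes fell in every injected group, with larger median changes among axonemal genes than among genes of assembly and transport. With Pax3GR 46 of 51 genes fell and 1 rose, while 23.0% of all probe sets tested fell and 27.3% rose (limma, adjusted p under 0.05 over all probe sets tested). With Zic1GR 39 fell and 1 rose, against 22.8% and 28.6% of all probe sets. With the combination 46 fell and 1 rose, against 20.3% and 24.6%. Each count of falls includes tekt2.L, which would not have passed the filter without the control arrays, so the filter favoured its fall. The median change of the 51 genes was -3.31, -2.26 and -2.52 on the log2 scale for Pax3GR, Zic1GR and the combination, and the median over all probe sets tested was 0.10, 0.09 and 0.08. A called fall of at least 2-fold was seen for 46, 35 and 45 genes, against 16.4%, 15.7% and 13.9% of all probe sets. All 5 injected arrays lay below all 5 control arrays for 36 genes with Pax3GR, 44 with Zic1GR and 47 with the combination, against 17.6%, 19.1% and 17.4% of all probe sets. Whole explants were measured, so fewer ciliated cells and less RNA in each of them cannot be told apart.

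The 6 dynein arm subunits had array means of 11.80 to 12.78 in control caps. All 6 fell with Pax3GR, 4 with Zic1GR and all 6 with the combination, by medians of -4.48, -2.59 and -3.20. The inner arm light intermediate chain gene dnali1.S read 12.44, 12.72, 13.46, 12.57 and 12.72 on the GR arrays. On the Pax3GR arrays it read 11.93, 8.87, 7.56, 7.48 and 7.60, on the Zic1GR arrays 8.63, 9.11, 11.00, 9.47 and 10.66, and on the combination arrays 10.43, 9.76, 8.86, 7.79 and 10.79. Every injected array lay below every control array, and the injected groups overlapped each other. The falls were 17.1-fold (log2 change -4.09, SE 0.76, adjusted p = 0.000235, and 30.1-fold without Pax3GR replicate 1), 8.05-fold (adjusted p = 0.00334) and 9.54-fold (adjusted p = 0.00216). The light chain gene dnal4.S had the smallest changes of the 6. It read 12.88 to 13.48 with GR, 10.80 to 12.83 with Pax3GR, 11.86 to 12.45 with Zic1GR and 10.97 to 12.38 with the combination, with falls of 3.08-fold (adjusted p = 0.000515), 1.84-fold (adjusted p = 0.0324) and 2.5-fold (adjusted p = 0.00345). Its call with Zic1GR was lost on leaving out GR replicate 2 or 3, or replicate 1, 2 or 5 of Zic1GR (adjusted p = 0.0507 to 0.0791).

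The intermediate chain genes dnai1.L and dnai2.S, whose products anchor the outer arm, showed the most uneven response to Pax3GR among the subunits. Dnai2.S read 11.41, 11.49, 12.27, 11.16 and 11.35 on the GR arrays and 11.49, 7.90, 3.88, 5.73 and 2.83 on the Pax3GR arrays. It read 9.67, 10.02, 10.56, 9.34 and 9.43 with Zic1GR and 9.86, 9.49, 5.17, 7.87 and 8.50 with the combination. Pax3GR replicate 1 was within the control range and 2 other Pax3GR arrays were under log2 4. The changes were -5.17 (adjusted p = 0.0016), -1.73 (adjusted p = 0.238, not called) and -3.36 (adjusted p = 0.0299), and the last was not called without GR replicate 3 or combination replicate 3 or 4 (adjusted p = 0.0569 to 0.0848). Dnai1.L changed by -4.86 with Pax3GR (adjusted p = 0.000706) and -2.95 with the combination (adjusted p = 0.0254, and 0.0596 or 0.0709 without GR replicate 3 or combination replicate 4). Its difference with Zic1GR was -2.26 (adjusted p = 0.0728), and 0.0109 without Pax3GR replicate 1, which entered through the shared estimate of spread. The outer arm docking gene odad4.L went from 11.82 ± 0.351 (SD, n = 5) in GR to 8.82 ± 1.32, 10.38 ± 0.434 and 9.64 ± 0.321, falls of 8.01-fold (adjusted p = 2.73e-05), 2.71-fold (adjusted p = 0.0127) and 4.52-fold (adjusted p = 0.000777).

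The 3 radial spoke genes had median changes of -3.99, -2.45 and -2.88, and 3, 2 and 3 of them fell. The radial spoke head gene rsph1.L read 11.77, 12.03, 12.71, 11.73 and 12.07 with GR, and 11.69, 7.47, 1.89, 2.46 and 1.87 with Pax3GR. It read 6.04, 6.45, 10.01, 8.49 and 9.42 with Zic1GR and 10.05, 9.16, 6.17, 3.33 and 9.70 with the combination. The gene was thus near the control level on Pax3GR replicate 1 and below log2 4 on replicates 3 to 5. Readings below log2 4 have no order, so wherever a group holds such arrays its fold is given with these values set to 4, while log2 changes and adjusted p are those of the deposited values. The change was -6.99 with Pax3GR (adjusted p = 0.00203), a fall of 56.8-fold and of 146-fold without Pax3GR replicate 1. It was -4.38 with the combination (adjusted p = 0.0409), a fall of 19-fold and of 9.79-fold without combination replicate 4. The combination's call rested on single arrays: it was lost without any 1 of the 5 GR arrays or without combination replicate 3 or 4 (adjusted p = 0.0593 to 0.123). With Zic1GR the difference was -3.98 (adjusted p = 0.0549), below 0.05 without Pax3GR replicate 1, Zic1GR replicate 3 or combination replicate 4 (lowest 0.0153) and with values below log2 4 set to 4 (0.0252). The spoke head gene rsph9.L and the spoke stalk gene rsph3.L fell 15.9-fold and 11-fold with Pax3GR (28.2-fold and 17.6-fold without Pax3GR replicate 1), 3.43-fold and 5.48-fold with Zic1GR, and 6.68-fold and 7.37-fold with the combination. Another rsph3.L probe set that passed the filter changed more, by -5.11, -3.79 and -4.93 on the log2 scale. The fall of rsph9.L with Zic1GR (adjusted p = 0.0339) was no longer called on leaving out GR replicate 2, 3 or 5, or replicate 1, 2 or 4 of Zic1GR (adjusted p = 0.0523 to 0.0823).

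The nexin-dynein regulatory complex was represented by drc1.L, which is needed for its assembly. It read 9.73, 10.61, 11.21, 10.33 and 10.55 with GR, 9.57, 5.10, 2.94, 2.90 and 2.85 with Pax3GR, 5.84, 6.29, 8.06, 6.58 and 8.35 with Zic1GR, and 7.36, 6.52, 6.91, 4.27 and 8.11 with the combination. Injected and control arrays did not overlap, and the falls were 35.6-fold (74.2-fold without Pax3GR replicate 1), 11-fold and 14.5-fold (9.58-fold without combination replicate 4; adjusted p = 0.000177, 0.0108 and 0.00637). Spag6.L, a central apparatus gene, read 11.54 to 12.84 in GR. It read 11.81, 7.55, 1.71, 2.44 and 1.80 with Pax3GR, 4.54, 3.13, 9.72, 7.76 and 9.36 with Zic1GR, and 9.95, 8.72, 6.88, 3.33 and 9.70 with the combination. Spag6.L had the widest spread of all members in the Pax3GR group (SD 4.49). It changed by -6.97 with Pax3GR (adjusted p = 0.00388), a fall of 54.2-fold and of 142-fold without Pax3GR replicate 1. With Zic1GR it changed by -5.13 (adjusted p = 0.0258), a fall of 31.1-fold, and of 18.2-fold to 49.1-fold with 1 array left out, moved by over 1.5 times without Zic1GR replicate 1, 2 or 3. The Zic1GR call was lost without GR replicate 3 or Zic1GR replicate 1 or 2 (adjusted p = 0.0519 to 0.0758). With the combination its change of -4.32 was not called (adjusted p = 0.0619, 0.0223 without Pax3GR replicate 1 and 0.0325 with values below log2 4 set to 4). Its other 3 probe sets that passed the filter disagreed with that, with falls called at adjusted p = 0.0191, 0.0425 and 0.00601.

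Tektins, the filament proteins inside the doublets, showed the largest median changes of the role groups with several genes: -5.74 with Pax3GR, -4.93 with Zic1GR and -4.08 with the combination. All 6 tektin probe sets fell with Pax3GR and with Zic1GR, and 5 with the combination. Tekt2.S read 12.76, 13.27, 13.79, 12.86 and 13.25 with GR and 12.56, 8.86, 2.67, 3.36 and 2.71 with Pax3GR. It read 4.44, 4.54, 10.62, 8.87 and 10.11 with Zic1GR and 10.96, 10.09, 8.21, 3.25 and 11.16 with the combination. Each injected group thus held arrays below log2 5 beside arrays above 10. The change with Pax3GR was -7.16 (SE 1.91, adjusted p = 0.0045), a fall of 90.7-fold, or 251-fold without Pax3GR replicate 1 and as little as 57-fold without replicate 3, 4 or 5. The fall with Zic1GR was 44.4-fold (adjusted p = 0.0236), and 25.1-fold, 25.6-fold, 73.5-fold and 67.2-fold without Zic1GR replicates 1, 2, 3 and 5. It was not called without Zic1GR replicate 1 or 2 (adjusted p = 0.0666 and 0.0656). With the combination the change of -4.45 was not called (adjusted p = 0.066, and 0.0302 without Pax3GR replicate 1).

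The homeolog tekt2.L read 6.63 to 9.55 in GR and 2.04 to 2.69 in Zic1GR, where all 5 arrays lay below log2 4, at least 15.7-fold lower. It reached log2 4 on 9 arrays, 5 of GR, 2 of Pax3GR and 2 of the combination. Without the control arrays it would not have passed the filter, which thus favoured a fall, and its fall is given as a description. Tekt4.S read 11.72 to 13.43 in GR and 4.0 to 10.47, 5.66 to 9.60 and 5.45 to 10.05 in the injected groups. Its falls were 76.3-fold, 26.2-fold and 16.3-fold (adjusted p = 0.000284, 0.00326 and 0.0103), the first 164-fold without Pax3GR replicate 1 and the last 9.99-fold without combination replicate 4. Tekt3.L was below log2 4 on 3 Pax3GR, 3 Zic1GR and 2 combination arrays, and fell 15.3-fold (23.7-fold without Pax3GR replicate 1), 22.9-fold and 19.8-fold. Tekt1.L changed by -5.68, -3.27 and -4.13, and its call with Zic1GR was lost without GR replicate 3 or Zic1GR replicate 1 or 2 (adjusted p = 0.0513 to 0.0556).

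**Figure D1:**
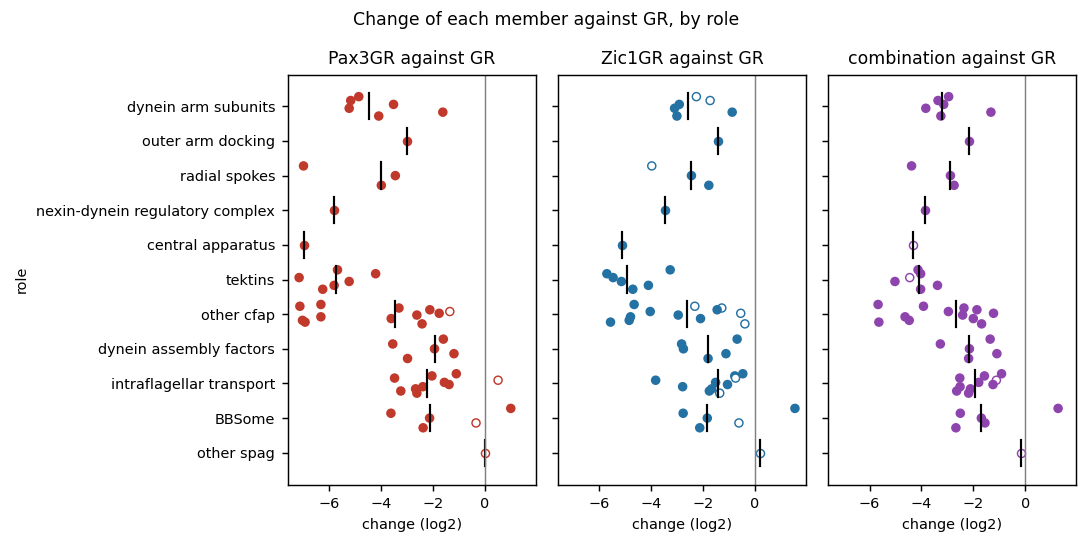
Change against GR (x axis, log2) of each of the 51 genes, by role (y axis), with 1 panel per injection. Filled points passed the test, open points did not, and bars mark the role medians. Axonemal roles spread down to -7.16, assembly factors, intraflagellar transport and BBSome genes mostly lie nearer to 0, and bbs10.L is the filled point above 0.

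The remaining 12 CFAP genes had median changes of -3.46, -2.64 and -2.68, and 11, 8 and 12 of them fell. Those with the largest changes lay below log2 4 on many injected arrays. Cfap70.L, whose product associates with the outer dynein arm, read 10.06, 10.63, 11.38, 9.92 and 10.28 with GR and 9.19, 3.28, 1.70, 1.69 and 1.76 with Pax3GR. It read 2.04, 2.04, 7.75, 5.53 and 7.05 with Zic1GR and 5.85, 4.58, 3.79, 1.96 and 7.89 with the combination. It was below log2 4 on 4 Pax3GR, 2 Zic1GR and 2 combination arrays, and no injected array reached the controls. The falls were 42.6-fold, 27.6-fold and 36.5-fold (adjusted p = 0.000692, 0.00419 and 0.00446), the first 87.6-fold without Pax3GR replicate 1 and the last 57.5-fold without combination replicate 5. Cfap126.L, the Flattop gene of basal body positioning, read 8.33 to 10.86 in GR and 4.62, 3.79, 2.44, 2.38 and 5.47 with the combination. It fell 31.9-fold with the combination (adjusted p = 0.000361), 25-fold with Pax3GR (42.6-fold without Pax3GR replicate 1) and 21.2-fold with Zic1GR.

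Cfap161.L, a protein of the doublet lumen, had a lower mean with Pax3GR than with Zic1GR, although the arrays of these groups overlapped. It read 11.78, 12.12, 12.80, 11.91 and 12.09 with GR and 11.13, 6.90, 2.25, 2.33 and 2.44 with Pax3GR. It read 8.62, 9.31, 10.51, 9.26 and 11.38 with Zic1GR and 9.69, 8.35, 7.96, 5.39 and 9.71 with the combination. With Pax3GR it fell 70.2-fold (adjusted p = 0.00029, and 171-fold without Pax3GR replicate 1). With Zic1GR its change of -2.32 was not called (adjusted p = 0.159, and 0.0382 without Pax3GR replicate 1) although all 5 arrays lay below the controls. With the combination it fell 15.1-fold (adjusted p = 0.0251, and 0.0527 or 0.0754 without GR replicate 3 or combination replicate 4, the fold then being 9.25 without the latter). Cfap298.L, a factor of dynein arm assembly and ciliary motility, changed less. It fell 4.35-fold, 2.74-fold and 3.63-fold (adjusted p = 0.000352, 0.00712 and 0.00144), from 12.73 ± 0.417 in GR to 10.61 ± 0.822, 11.28 ± 0.611 and 10.87 ± 0.774. Cfap20.L, cfap36.L and cfap73.S fell with Pax3GR and with the combination, and with Zic1GR their changes of -1.28, -0.55 and -0.39 were not called (adjusted p = 0.0788, 0.187 and 0.48, with cfap20.L at 0.0172 without Pax3GR replicate 1).

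The genes that build and load the cilium had smaller median changes than those of its axoneme. Over the 30 axonemal genes the median changes were -5.01, -3.05 and -3.37, and over the 20 genes of dynein assembly, intraflagellar transport and the BBSome they were -2.09, -1.59 and -1.95. Of the axonemal genes 29, 23 and 28 fell, and of the others 17, 16 and 18 fell while 1 rose in each comparison. In Pax3GR replicates 3, 4 and 5, 14 of the 30 axonemal genes lay below log2 4 on each array, and 2, 2 and 3 of the 20 others did. The classes follow the name prefixes, so all CFAP genes count as axonemal. Among them are cfap298.L and cfap300.L, which take part in dynein arm assembly, and cfap126.L of basal body positioning. The difference between these classes was not tested, since members are not replicates. For 11 of the 51 genes more than 1 probe set passed the filter. The sizes rest on the brightest. Other probe sets changed more in all 3 comparisons for dnaaf4.L, dnaaf5.L, dnal4.S, ift46.S, ift57.S, ift80.L and rsph3.L. Of these genes only dnal4.S and rsph3.L count as axonemal. The other probe sets of dnaaf5.L and ift46.S would not have passed without the control arrays, so the filter favoured their fall.

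All 5 dynein assembly factor probe sets fell in all 3 comparisons, by medians of -1.94, -1.81 and -2.15. Dnaaf10.L, an assembly co-chaperone, read 12.14, 12.39, 13.02, 12.36 and 12.46 with GR, 11.96, 10.77, 10.54, 10.50 and 10.58 with Pax3GR, 11.69, 11.66, 12.00, 11.55 and 12.03 with Zic1GR, and 11.30, 11.00, 11.06, 10.79 and 11.45 with the combination. Injected and control arrays did not overlap in any group. The falls were 3.04-fold (adjusted p = 3.13e-05), 1.61-fold (adjusted p = 0.0245) and 2.56-fold (adjusted p = 0.000225). The Zic1GR call was lost without GR replicate 3 or Zic1GR replicate 2 or 4 (adjusted p = 0.0509 to 0.0742). Dnaaf3.L had the largest fall of these factors with Pax3GR (11.7-fold, adjusted p = 0.000424, and 19.4-fold without Pax3GR replicate 1), followed by 7.12-fold and 9.66-fold with Zic1GR and the combination. For dnaaf4.L the fall with Zic1GR (6.79-fold, adjusted p = 7.7e-05) stood beside 3.83-fold with Pax3GR and 4.45-fold with the combination, and the difference of Pax3GR from Zic1GR was not called. Its other probe set fell more, 13.7-fold with Zic1GR, 7.04-fold with Pax3GR and 10.6-fold with the combination.

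Of 10 intraflagellar transport probe sets 9 fell with Pax3GR, 8 with Zic1GR and 9 with the combination, by medians of -2.22, -1.44 and -1.95. Ift46.S belongs to the anterograde IFT-B complex. It read 11.21, 11.60, 11.93, 11.29 and 11.49 with GR, 10.78, 9.56, 10.16, 9.97 and 10.15 with Pax3GR, 10.15, 10.31, 10.30, 10.51 and 10.95 with Zic1GR, and 10.12, 9.98, 10.34, 10.22 and 10.65 with the combination. No injected array reached the control range, and the falls of 2.6-fold, 2.09-fold and 2.37-fold were close in size (adjusted p = 3.08e-05, 0.000459 and 0.000122). Another ift46.S probe set changed more, by -2.07, -1.63 and -2.15 on the log2 scale. It would not have passed the filter without the control arrays, so the filter favoured its fall. Ift52.L, a core subunit of the same complex, fell 5.24-fold, 6.94-fold and 5.69-fold (adjusted p = 1.3e-05, 3.36e-06 and 1.07e-05). Ift43.L, the single subunit here of the retrograde IFT-A complex, fell 2.96-fold, 2.88-fold and 3.46-fold (adjusted p = 0.000154, 0.00024 and 5.68e-05). Ift57.S fell 6.38-fold, 3.17-fold and 4.31-fold (adjusted p = 6.97e-06, 0.000841 and 0.000116), and its other probe set fell 12.1-fold, 4.01-fold and 6.97-fold.

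Several transport genes lay close to the threshold with Zic1GR. Ift20.L changed by -0.47 (adjusted p = 0.0369), ift20.S by -0.78 (adjusted p = 0.0373) and ift74.L by -1.76 (adjusted p = 0.0292). Each of these calls was lost without GR replicate 3 or Zic1GR replicate 1 or 4. That of ift20.L was also lost without GR replicate 4 or Zic1GR replicate 2 (adjusted p up to 0.0998), that of ift20.S without replicate 2 or 5 of GR or 2 or 3 of Zic1GR (up to 0.0905), and that of ift74.L without GR replicate 5 or Zic1GR replicate 5 (up to 0.0773). Ift80.L changed by -1.36 with Zic1GR (adjusted p = 0.0526, and 0.0123 to 0.0497 without Pax3GR replicate 1, 2, 3 or 5). Ift22.S, which encodes a small GTPase-like subunit, read 7.73, 8.57, 8.64, 6.54 and 8.66 with GR and 6.90, 7.38, 7.93, 7.81 and 6.37 with Zic1GR, a difference of -0.75 (adjusted p = 0.459). It read 7.50, 5.45, 2.73, 4.40 and 2.65 with Pax3GR and 6.78, 6.53, 3.68, 4.43 and 6.14 with the combination, falls of 7.78-fold (adjusted p = 0.00169, and 11.9-fold without Pax3GR replicate 1) and 5.47-fold (adjusted p = 0.018, and 0.0517 without combination replicate 3).

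The 5 BBSome probe sets had median changes of -2.13, -1.84 and -1.69, with 3, 3 and 4 falls and 1 rise in each comparison. Bbs12.L is a chaperonin-like gene of BBSome assembly. It read 10.39, 10.79, 11.53, 10.41 and 10.56 with GR, 10.18, 7.23, 6.08, 5.67 and 6.41 with Pax3GR, 7.01, 6.37, 8.58, 8.44 and 9.42 with Zic1GR, and 8.80, 7.81, 7.92, 7.73 and 8.96 with the combination. Its falls were 12.3-fold (21-fold without Pax3GR replicate 1), 6.84-fold and 5.64-fold (adjusted p = 0.000345, 0.00338 and 0.0079). The subunit genes bbs9.L and bbs5.L fell 5.19-fold and 3.49-fold with Pax3GR, 4.38-fold and 3.52-fold with Zic1GR, and 6.37-fold and 3.14-fold with the combination.

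A single member rose. Bbs10.L, another chaperonin-like gene of BBSome assembly, read 6.92, 7.47, 6.68, 7.07 and 7.16 with GR. It read 8.72, 7.93, 7.91, 7.96 and 7.77 with Pax3GR, 8.60, 8.78, 8.50, 8.29 and 8.83 with Zic1GR, and 8.12, 8.22, 8.75, 8.61 and 7.96 with the combination. All 15 injected arrays lay above all 5 control arrays. The rises were 1.99-fold (SE 0.20 on the log2 scale, adjusted p = 0.000412), 2.9-fold (adjusted p = 7.66e-06) and 2.41-fold (adjusted p = 5.68e-05). Spag7.L was called in none of the comparisons against GR, with group means of 10.34 ± 0.118, 10.36 ± 0.186, 10.52 ± 0.142 and 10.17 ± 0.176. Its other probe set that passed the filter disagreed for Zic1GR, where it was called higher (0.44, adjusted p = 0.0183).

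Ift27.L, the small GTPase of IFT-B that in mammals helps the BBSome leave the cilium, differed between the factors. It read 7.70, 9.07, 9.91, 8.51 and 8.86 with GR and 9.42, 9.13, 9.24, 9.38 and 9.41 with Pax3GR. It read 4.63, 3.88, 6.20, 4.96 and 5.22 with Zic1GR and 8.32, 8.43, 5.76, 8.13 and 7.88 with the combination. The Pax3GR arrays lay inside the control range, and the Zic1GR arrays lay below all arrays of GR and Pax3GR. These values rest on a single probe set, as the other one of the gene lay below log2 4 on all 20 arrays. With x, s and a probe sets left out, ift27.L was not tested. With Zic1GR it fell 14-fold (change -3.83, SE 0.49, adjusted p = 7.81e-06), with Pax3GR its difference was 0.51 (adjusted p = 0.412) and with the combination -1.11 (adjusted p = 0.0757, and 0.0331 without GR replicate 1). Pax3GR stood above Zic1GR by 4.34 on the log2 scale (adjusted p = 2.62e-06), and the combination stood above Zic1GR by 2.73 (adjusted p = 0.000822). The combination lay 3.06-fold below Pax3GR (adjusted p = 0.0438), a call lost without any 1 of 12 arrays, among them all 5 of Pax3GR, GR replicates 2, 4 and 5, Zic1GR replicates 1 and 4, and combination replicates 3 and 5 (adjusted p = 0.0529 to 0.106).

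Cfap300.L, whose product takes part in dynein arm assembly, had the same order of the single factors. It read 8.12, 8.14, 10.51, 9.12 and 8.45 with GR, 8.36, 6.69, 8.28, 7.34 and 6.93 with Pax3GR, 2.65, 4.84, 6.12, 3.39 and 7.11 with Zic1GR, and 3.65, 5.54, 5.88, 7.38 and 7.11 with the combination. GR and Pax3GR arrays overlapped, and those of the other groups lay below the controls. It fell 12.6-fold with Zic1GR (adjusted p = 0.000574) and 7.39-fold with the combination (adjusted p = 0.00686), and its change with Pax3GR was -1.35 (adjusted p = 0.18). Pax3GR stood above Zic1GR by 2.70 on the log2 scale (adjusted p = 0.0156). Bbs7.L, a BBSome subunit gene, read 8.88 to 9.96 with GR, 8.28 to 9.83 with Pax3GR, 8.08 to 9.12 with Zic1GR and 7.31 to 8.18 with the combination. Its changes were -0.34 (adjusted p = 0.34), -0.62 (adjusted p = 0.0814) and -1.55 (2.93-fold, adjusted p = 0.000339). The combination lay below Pax3GR by 2.3-fold (adjusted p = 0.0124) and below Zic1GR by 1.91-fold (adjusted p = 0.0398), the latter not called without Zic1GR replicate 1, 2, 4 or 5 or combination replicate 2, 3, 4 or 5 (adjusted p = 0.0557 to 0.0967).

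**Figure D2:**
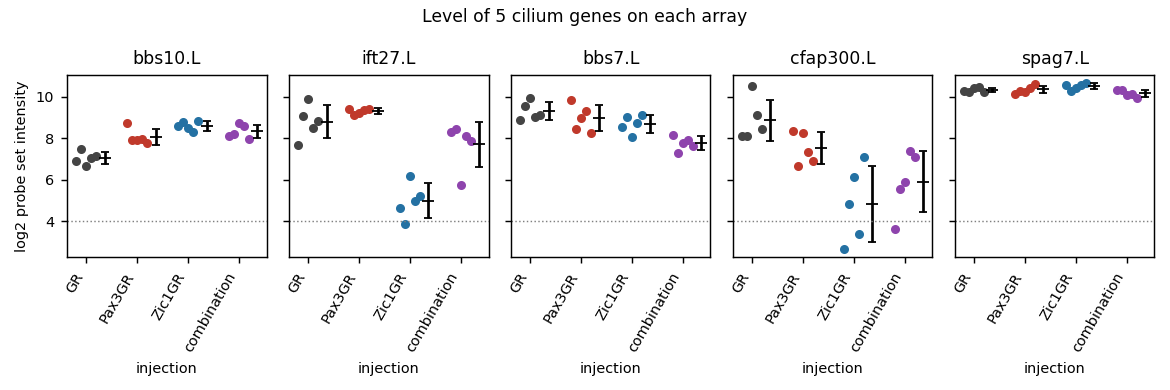
Log2 intensity (y axis) of bbs10.L, ift27.L, bbs7.L, cfap300.L and spag7.L on each of the 20 arrays, by group (x axis), with mean ± SD per group (n = 5) and a dotted line at log2 4. Bbs10.L lies higher in all injected groups, ift27.L and cfap300.L lie lowest in Zic1GR, and spag7.L differs little between the groups.

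Explants of one injection differed widely in these genes, and the genes of an explant moved together. The mean log2 level of the 51 genes was 10.26, 10.65, 11.47, 10.41 and 10.62 on the GR arrays and 10.01, 7.48, 6.16, 6.13 and 6.11 on the Pax3GR arrays. It was 7.39, 7.61, 9.05, 8.13 and 8.84 on the Zic1GR arrays and 8.73, 8.11, 7.50, 6.78 and 8.76 on the combination arrays. Pax3GR replicate 1 lay just under the control range, and replicates 3 to 5 were the lowest of all 20 explants. The group means were 10.68 ± 0.469, 7.18 ± 1.69, 8.20 ± 0.731 and 7.98 ± 0.844 (SD, n = 5), and the Pax3GR mean was 6.47 without replicate 1. Pax3GR replicate 1 had the highest value of its group for 49 of 51 genes and GR replicate 3 for 48. Combination replicate 4 had the lowest for 32 genes, while in Zic1GR replicate 3 or 5 was highest for 28 and 22. The median SD of a cilium gene within its group was 0.445 with GR, 1.65 with Pax3GR, 0.794 with Zic1GR and 0.799 with the combination, against 0.260, 0.382, 0.336 and 0.408 over all probe sets tested.

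The axonemal mean varied over a wider range than that of assembly and transport genes. It was 10.29, 7.01, 5.07, 5.05 and 4.95 on the Pax3GR arrays, where the mean of assembly and transport genes was 9.59, 8.04, 7.59, 7.54 and 7.63. On the Zic1GR arrays the axonemal mean was 6.79, 7.16, 9.17, 7.84 and 8.82 and the other mean 8.14, 8.16, 8.80, 8.44 and 8.78. On the combination arrays the values were 8.74, 8.00, 7.16, 5.96 and 8.83, and 8.63, 8.15, 7.90, 7.85 and 8.60. The control arrays lay at 10.68 to 12.04 and 9.63 to 10.66. Levels of different probe sets are not comparable as amounts of RNA, so only the shift of each mean between arrays can be read.

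**Figure D3:**
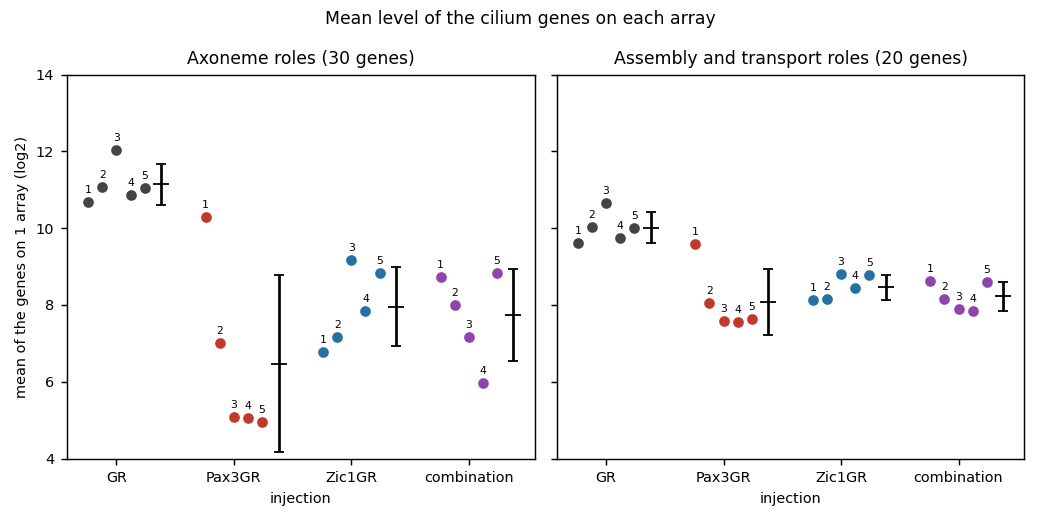
Mean log2 intensity (y axis) of the 30 axonemal genes and of the 20 assembly and transport genes on each array, labelled with its replicate number, with mean ± SD per group (x axis, n = 5). Pax3GR replicate 1 lies at 10.29 and 9.59, and the other Pax3GR arrays lie between 4.95 and 7.01 and between 7.54 and 8.04.

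The hatching gland markers astl3a.1.L and xa-1.L were high on Pax3GR replicate 1. They had a mean of 14.36 there (14.36 to 14.62 over its group), while they read 1.97 to 2.03 in GR, and the pax3.S level of the explant was 13.25. Markers of other cell types varied on it as well. Its ionocyte marker mean was 6.80, the highest of its group (4.49 to 6.80), its mucus cell marker mean 10.72 (7.04 to 10.72) and its epidermis marker mean 11.46 (9.68 to 11.46), while its small secretory cell marker mean of 4.78 was the lowest of the group (4.78 to 6.50). Its neural plate and neural crest marker means were the lowest of its group at 9.32 and 8.64. What set this explant apart was not tested. Without it all 47 calls of cilium genes against GR with Pax3GR were kept, and the median change was -3.94.

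Of the regulators of multiciliated cells, foxj1.S and mcidas.S were lowest on explants with low cilium means. Foxj1.S, the master regulator of motile cilia, read 13.02, 13.38, 13.99, 13.05 and 13.54 with GR and 13.00, 9.73, 2.99, 3.29 and 3.21 with Pax3GR. It read 3.20, 3.86, 11.51, 10.05 and 11.15 with Zic1GR and 11.67, 10.30, 9.19, 3.48 and 11.70 with the combination. The 6 arrays with foxj1.S below log2 4 were Pax3GR replicates 3 to 5, Zic1GR replicates 1 and 2 and combination replicate 4, which had the lowest axonemal means of their groups. Mcidas.S, which starts the multiciliated programme, read 11.23 to 12.33 with GR, 10.53, 5.39, 1.91, 1.77 and 1.72 with Pax3GR, 1.87, 1.87, 9.13, 7.30 and 8.76 with Zic1GR, and 9.02, 7.75, 3.48, 2.05 and 9.22 with the combination. Foxj1.S fell with Pax3GR (change -6.95, adjusted p = 0.0112) and Zic1GR (-5.44, adjusted p = 0.0407), and its change with the combination was not called (-4.12, adjusted p = 0.125). The other copy, foxj1.L, was at least 8.06-fold lower with the combination, but it passed the filter only with the control arrays, so the filter favoured a fall.

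Rfx2.S, a transcription factor of ciliary genes, changed by similar amounts in the 3 groups. It fell by 2.27 with Pax3GR, 2.18 with Zic1GR and 2.24 with the combination on the log2 scale (adjusted p = 5.45e-05, 0.000102 and 8.59e-05). On the combination arrays it read 7.35, 7.18, 6.57, 7.33 and 7.79, and it was not lowest on replicate 4, which had the lowest cilium mean. On the Zic1GR arrays it read 6.68, 6.16, 7.56, 7.54 and 8.60, higher on replicates 3 to 5, where the cilium mean was higher too. On the Pax3GR arrays it read 7.92, 7.04, 6.99, 7.06 and 7.08, highest on replicate 1, as the cilium mean was. Of 10 regulator probe sets 6, 7 and 4 fell, beside 23.0%, 22.8% and 20.3% of all probe sets tested. Each of these counts includes foxj1.L, whose fall the filter favoured. In each comparison 1 regulator rose, beside 27.3%, 28.6% and 24.6%. It was e2f4.S, a partner of Mcidas in activating centriole genes (changes 0.67, 1.14 and 0.90, adjusted p = 0.00326, 4.1e-05 and 0.000408). Its dimerisation partner tfdp1.S was not called (0.16, 0.06 and 0.19).

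Further cilium genes that the name rule left out mostly fell. In the same comparisons 23.0%, 22.8% and 20.3% of all probe sets tested fell, and 27.3%, 28.6% and 24.6% rose. Of 31 probe sets of other motile axoneme genes 28, 27 and 28 fell and none rose, by medians of -3.72, -2.55 and -3.10. The doublet gene ribc1.L fell 67.5-fold with Zic1GR (adjusted p = 0.000164). Tppp3.L, a tubulin-binding protein gene, was at least 2.92-fold lower in each group, but it passed the filter through the control arrays alone and so had to differ. The light chain gene dynll1.L, which also serves cytoplasmic dynein, fell with the combination and was not called with Pax3GR or Zic1GR (-0.12 and -0.16). Of 22 probe sets of other transport and ciliary gate genes 16, 16 and 19 fell and none rose, by medians of -1.53, -1.15 and -1.48. Rpgr.S, a regulator of the gate, fell 3.71-fold, 3.06-fold and 3.59-fold (adjusted p = 2.72e-06, 2.18e-05 and 5.22e-06), and the transition zone gene b9d1.L fell with the combination (-0.89, adjusted p = 0.00579) and was not called with Pax3GR (-0.53) or Zic1GR (-0.23). Of 19 probe sets of centriole amplification, which supplies the basal bodies, 18, 14 and 15 fell, by medians of -1.37, -1.50 and -1.72. Ccdc78.S of the deuterosome pathway fell 69-fold with Pax3GR (adjusted p = 6.58e-05, and 116-fold without Pax3GR replicate 1), and the centriole gene cep63.L rose in all 3 comparisons (1.86, 3.10 and 2.45).

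Markers of other cell types were counted in the same comparisons, in which 23.0%, 22.8% and 20.3% of all probe sets fell. The shares of all probe sets that rose were 27.3%, 28.6% and 24.6%. Of 11 ionocyte probe sets 10, 11 and 10 fell, and the log2 of their summed intensity was 14.79 to 15.62 with GR, 11.12 to 12.14 with Pax3GR, 9.13 to 12.62 with Zic1GR and 10.04 to 11.47 with the combination. The ionocyte gene slc26a4.3 was below log2 4 as .L and .S on all 15 injected arrays. Both copies thus passed the filter through the control arrays alone and had to differ, and they are among the 11 probe sets counted. Of 3 mucus cell probe sets 3, 0 and 2 fell, with summed levels of 15.46 to 15.73, 8.77 to 14.02, 13.57 to 15.31 and 10.89 to 14.41. Of 11 epidermis probe sets 8, 3 and 2 fell and 1, 2 and 2 rose, with summed levels of 17.30 to 17.36, 15.86 to 17.22, 16.57 to 17.13 and 16.49 to 17.22. Of 2 small secretory cell probe sets 1, 2 and 2 fell. Of 9 neural plate probe sets 7, 8 and 5 rose and 0, 0 and 2 fell, and of 6 neural crest probe sets 6, 5 and 6 rose. Of 2 placode probe sets 1, 2 and 0 rose, of 2 hatching gland probe sets 2, 1 and 2, and of 2 mesoderm probe sets 2, 1 and 1. All of these, 2 of the neural crest probe sets and 1 of the neural plate probe sets lay below log2 4 on all 5 control arrays, so the filter favoured a rise. Of 3 cement gland probe sets 2, 0 and 2 fell and 0, 1 and 0 rose. Here too 1 probe set lay below log2 4 on all 5 control arrays, so the filter favoured its rise. These lists overlap: agr2 is on the mucus cell and cement gland lists, and pitx1 on the placode and cement gland lists. Of the 10 multiciliated cell probe sets, 3 of them also cilium genes described here, 10, 9 and 7 fell. These counts include foxj1.L and tekt2.L, which would not have passed without the control arrays, so the filter favoured their fall. The part of these cell types in the fall of cilium genes was not tested.

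The combination was compared with each single factor to ask whether both together acted differently from either. The order of group means was GR, Zic1GR, combination, Pax3GR from high to low for 29 genes, and GR, combination, Zic1GR, Pax3GR for 11, but most genes did not pass the test between injected groups. Against Pax3GR none of the 51 genes was higher with the combination and 2 were lower (ift27.L and bbs7.L), beside 4.28% and 5.98% of all probe sets, with a median difference of 0.57. Leaving out Pax3GR replicate 1 turned this to 21 higher and 1 lower, beside 7.07% and 8.1%, with a median of 1.24. Leaving out any of the 11 other arrays that ended the call of ift27.L left bbs7.L alone. Against Zic1GR 1 gene was higher (ift27.L) and 2 lower (bbs7.L and spag7.L), beside 7.05% and 6.25%, and the median was -0.39. Without Pax3GR replicate 1 these counts were 1 and 5, beside 7.83% and 7.38%, and without Zic1GR replicate 1, 4 or 5 or combination replicate 3, 4 or 5 only ift27.L was called. Spag7.L differed by -0.35 (adjusted p = 0.048), a call lost without any 1 of 15 arrays, namely all 5 of GR, Pax3GR replicates 2, 3 and 4, Zic1GR replicates 1, 3, 4 and 5 and combination replicates 3, 4 and 5 (adjusted p up to 0.121).

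Pax3GR set against Zic1GR gave 13 genes lower and 2 higher, beside 17.0% and 17.3% of all probe sets, with a median of -1.17. Without Pax3GR replicate 1, 34 were lower and 2 higher, beside 17.5% and 18.0%, with a median of -1.62. Among the called genes that were lower with Pax3GR, the largest differences were those of cfap161.L (-4.81, adjusted p = 0.0104, and -3.81 with values below log2 4 set to 4), dnai2.S (-3.44, adjusted p = 0.034) and ift22.S (-2.73, adjusted p = 0.0147), and ift27.L and cfap300.L were the 2 that were higher. The difference of dnai2.S was not called without Pax3GR replicate 3, 4 or 5 or Zic1GR replicate 1, 2 or 3 (adjusted p = 0.0541 to 0.101). That of cfap161.L was not called with only the groups compared (adjusted p = 0.0575). The others that were lower included odad4.L, rsph9.L, cfap73.S, ift20.S, ift57.S and dnaaf10.L.

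The effects of the factors were not additive for most of the genes. Non-additivity, the combination's change minus the sum of both single changes, was called higher for 41 genes and lower for 1, beside 17.0% and 19.6% of all probe sets, with a median of 2.68 against -0.12 over all probe sets. For 19 genes the sum of the single changes would end below log2 4, the background level, so the scale favoured a higher value for them. Among these were tekt2.S (8.18, adjusted p = 0.0252), spag6.L (7.78, adjusted p = 0.0254) and cfap52.S (7.41, adjusted p = 0.00859). The calls of tekt2.S and spag6.L were lost without Zic1GR replicate 1 (adjusted p = 0.0505) and Zic1GR replicate 2 (adjusted p = 0.0504). Among the 32 genes whose sum lay within the scale, 24 were higher and 1 lower (75.0% higher, against 12.0% higher and 21.0% lower of all probe sets within the scale), with a median of 2.22. Ift52.L, chosen after its values were seen, had an expected mean of 4.62 and a measured mean of 7.30 with the combination (non-additivity 2.68, adjusted p = 0.000394). The single gene in the other direction was bbs10.L, expected at 9.59 and measured at 8.33 (-1.26, adjusted p = 0.00236).

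Both homeologs were measured for 6 of the genes, among 1415 such pairs on the array. With Pax3GR the copies differed in their change in 4 of 6 pairs, and 39.1% of all pairs were called in either direction. In these 4 the S copy fell more: cfap52 changed by -3.61 (.L) and -7.03 (.S, difference 3.42, adjusted p = 0.00562), cfap45 by -2.62 and -6.32 (3.70, adjusted p = 0.0164), dnaaf5 by -1.19 and -2.98 (1.79, adjusted p = 0.0044) and ift20 by -1.10 and -2.04 (0.94, adjusted p = 0.00618). With values below log2 4 set to 4, the differences were 2.63 for cfap52 (adjusted p = 0.00759) and 3.01 for cfap45 (adjusted p = 0.022). The other dnaaf5.L probe set that passed the filter changed by -2.31 with Pax3GR, nearer to the S copy. That probe set lay below log2 4 on all 5 Pax3GR arrays and passed through the control arrays alone, so it had to differ. Whether the dnaaf5 copies differ with it was not tested. Cfap52 and cfap45 encode proteins of the doublet lumen. With Zic1GR 1 of 6 pairs was called, beside 36.3%, again cfap52 (-2.10 and -4.85, difference 2.75, adjusted p = 0.024). No pair was called without GR replicate 3 or Zic1GR replicate 1 or 2, and 2 were without combination replicate 2. With the combination 2 of 6 were called, beside 30.2%: cfap52 (-2.00 and -4.47, difference 2.47, adjusted p = 0.0465) and tekt3, where the L copy fell more (-5.02 and -3.38, difference -1.64, adjusted p = 0.00882, or -0.92 and 0.0448 with values below log2 4 set to 4). For cfap52 the difference with the combination was 2.2 with values below log2 4 set to 4 (adjusted p = 0.0263). A single pair was left without any GR array, Pax3GR replicate 4 or 5, Zic1GR replicate 4 or combination replicate 2. The calls of dnaaf5.S with Zic1GR (-1.81, adjusted p = 0.0189) and of cfap52.L and cfap52.S with the combination (adjusted p = 0.0197 and 0.0158) rested on single arrays too. The first was lost without GR replicate 3 or Zic1GR replicate 1 or 2 (adjusted p = 0.0501 to 0.0616), cfap52.L without GR replicate 3 or combination replicate 4 (adjusted p = 0.0514 and 0.0501), and cfap52.S without combination replicate 4 (adjusted p = 0.0517).

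**Figure D4:**
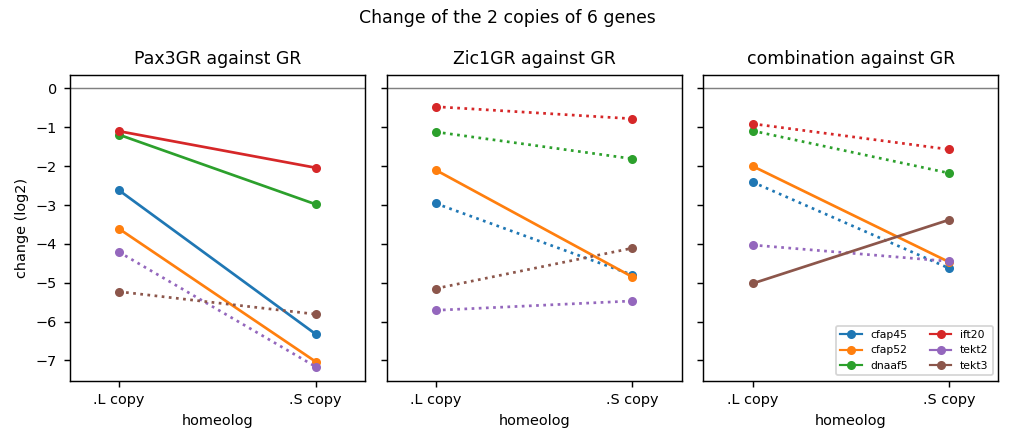
Change against GR (y axis, log2) of the .L and .S copies of 6 cilium genes in the 3 injections, with copies joined by a solid line where their difference was called and by a dotted line where it was not. With Pax3GR the .S copies of cfap45, cfap52, dnaaf5 and ift20 lie lower than the .L copies.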

How the data were processed

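Probe set intensities of 20 single explants were deposited on the log2 scale. GCRMA and Partek are named in the submitters' processing notes; their version, role and order are not given in the sources used here. Array medians were 6.10 to 6.30. Of 32635 probe sets 96 controls were left out, and 15495 of the remaining 32539 had 1 symbol, 279 several and 16765 none; 15384 symbols were checked by gene identifier. Probe sets with log2 of 4 or more on at least 5 of 20 arrays were fitted with limma 3.58.1 in R 4.3.3 (1 mean per group over all arrays, moderated variances), and p-values of each of 7 comparisons were adjusted by Benjamini-Hochberg over 20519 probe sets, with a threshold of 0.05. "Rose" and "fell" are used of what passed it. Homeologs were compared by the same model on the within-array .L minus .S difference. Folds against GR were computed with values below log2 4 set to 4, and are given as "at least" where a whole group lay below it. The fit was tested on simulated data.

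Groups came from the labels, which number the samples of each group 1 to 5 and call them biological replicates without naming shared clutches. The p-values measure the spread between these samples, and 5 arrays per group limit the precision.

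Members, roles and lists were chosen with earlier results of these data known. Named by rule were the 2 members of each role with the highest mean (all of a role of 4 or fewer), the 6 largest falls and rises among called members in each comparison against GR and 3 in each other comparison, members called higher or not at all against GR, 5 homeolog pairs, up to 3 called genes and 1 not called of each other list of cilium genes, and foxj1, rfx2, mcidas, pax3 and zic1. Outside that rule, dnai1.L, tekt1.L, cfap20.L, cfap36.L, cfap73.S, dnaaf3.L, dnaaf4.L, ift43.L, ift52.L, ift57.S, ift74.L, ift80.L, bbs5.L and bbs9.L were chosen after their values were seen. Alternatives were other filters, scalings, variance models, array weights, probe set choices and thresholds, the compared groups alone, replicate number as a block, and arrays left out. Those added after seeing the data were non-additivity within the scale, array means without Pax3GR replicate 1, and folds with values set to 4 and an array left out.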

Additional observations from a re-analysis of the deposited data

Results flagged for a closer look

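In 236 groups of 5 arrays (51 genes and 8 means over several genes, in 4 groups), 21 (8.9%) held an array whose gap to the nearest other exceeded the critical share of the group's range, 0.71. Chance gives about 1 in 20. Pax3GR replicate 1 made 10 of these and GR replicate 3 made 6.

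On Pax3GR replicate 1, dnai4.S read 9.73 (the other 4 arrays 5.78 to 6.68), cfap126.L 7.85 (1.61 to 2.29), cfap298.L 12.06 (10.07 to 10.47), cfap45.S 9.06 (2.33 to 3.95) and cfap70.L 9.19 (1.69 to 3.28). The same array had dnaaf10.L at 11.96 (10.50 to 10.77), dnaaf5.L at 11.32 (9.45 to 9.88) and bbs10.L at 8.72 (7.77 to 7.96). Its mean of the CFAP genes was 9.77 (5.43 to 6.48) and of the BBSome genes 8.52 (6.66 to 6.89). On Pax3GR replicate 2, cfap45.L read 4.48, below the others (7.97 to 8.70).

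On GR replicate 3, dnai4.S read 11.18 (10.07 to 10.35), dnali1.S 13.46 (12.44 to 12.72), cfap73.S 11.34 (10.31 to 10.56), dnaaf3.L 11.89 (10.79 to 11.11) and bbs5.L 6.99 (5.66 to 6.0), and the CFAP mean was 11.77 (10.38 to 10.73).

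Among Zic1GR arrays, tekt2.L read 2.69 on replicate 3 (2.04 to 2.23), below background throughout, and bbs5.L 5.13 on replicate 5 (3.88 to 4.21). Among combination arrays, ift27.L read 5.76 on replicate 3 (7.88 to 8.43) and ift43.L 7.83 on replicate 1 (7.27 to 7.33).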

How the results depend on the processing

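Among counts, medians and array means, each set against every alternative, 552 values stayed, 49 moved and 2 reversed. A count stayed if it was within 1.5 times the main one, and a median or array mean if it shifted by less than an SD of the array means. For medians this was the SD of the most variable group compared, 1.69 where Pax3GR took part, so a median that stayed may still have shifted. Over single genes 5329 calls stayed, 37 were gained, 123 were lost and none changed sign. The median difference of the combination against Zic1GR, -0.39, reversed to 0.06 with array weights and 0.05 without the least correlated array of each group. The count for the combination against Pax3GR (2) was 33 with array weights, 36 without the least correlated arrays, 1 without a filter, 1 without x, s and a probe sets and 0 with only the groups compared, and 1 to 22 with each array left out. For the combination against Zic1GR (3) it was 5, 6 and, with a change of at least 1 required, 1, and 1 to 6 with each array left out. For Pax3GR against Zic1GR (15) it was 41, 34 and, with only the groups compared, 8, and 12 to 36 with each array left out. Non-additivity within the scale was called for 25 of 32 genes. Homeolog calls with Zic1GR (1) were 0 to 2 with each array left out, and with the combination (2) 1 without a filter, 1 without the least correlated arrays and 1 to 3 with each array left out. Counts against GR were 47, 31 to 45 and 41 to 49 with each array left out for Pax3GR, Zic1GR and the combination.

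With replicate number as a block, the calls of ift80.L with Zic1GR were gained (adjusted p = 0.0433) and those of ift27.L (combination against Pax3GR, 0.0834), bbs7.L and spag7.L (combination against Zic1GR, 0.0706 and 0.0844) lost, which left 1 gene called in each of the last 2 comparisons. Of 30 correlations between same-numbered arrays of different groups (-0.382 to 0.466) 8 were over 0.1. Among them were 0.35, 0.326 and 0.466 for replicates 1, 2 and 4 of Pax3GR and the combination, and 0.427 for replicate 5 of Zic1GR and the combination. Of 20 arrays 8 correlated best with their own number, out of 5 numbers. The numbers were not taken to pair the samples, but these values do not settle whether they mark shared clutches. The causes of these shifts were not tested. With values below log2 4 set to 4, rsph1.L with Zic1GR (0.0252) and spag6.L with the combination (0.0325) were called as well.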
